A study of Mus musculus with 2 samples.

Results

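Complement and coagulation factors were followed across the cell types and hepatocyte zones of the mouse liver in diet-induced metabolic dysfunction–associated steatohepatitis (MASH). The 45 genes were taken by symbol from the 32285 genes of the gene list of the count matrices, and all 45 symbols were found. They comprise 27 genes of the complement system and 18 genes of coagulation and fibrinolysis. The 2 groups were sampled by single-nucleus RNA-seq (snRNA-seq) of snap-frozen liver, with 1 library in each. The library labelled Flox came from *Themis* flox/flox mice, which carry the floxed gene without Cre, and the library labelled HKO from *Themis* Alb-Cre mice, in which the albumin promoter drives Cre in hepatocytes. Mice of both groups were male, of the C57BL6/J strain, and received for 5 months, from the age of 10 to 12 weeks, the same diet with 40% of energy from fat, 20% from fructose and 2% cholesterol. Liver pieces of several mice were pooled within a genotype before nuclei were isolated, so that animals cannot be told apart, there is no replicate check, and no test between the groups was possible. A gene was therefore described by its level in CPM, the unique molecular identifiers (UMIs) of a gene summed over a cell type and scaled to the same total of UMIs in every type and library, by its ratio between the libraries, and by 95% intervals that cover counting error only.

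Complement is a chain of plasma proteases and binding proteins that marks targets for phagocytes and ends in a pore, the membrane attack complex. It is started by the classical pathway (C1q on antibody), the lectin pathway (mannose-binding lectins on sugars) or the alternative pathway (spontaneous turnover of C3). Coagulation is a second protease chain, in which thrombin turns fibrinogen into fibrin, cofactors speed the steps, and antithrombin, protein C and plasmin limit or undo the clot. The liver is the main source of most of these proteins, but C1q is known from macrophages and factor VIII and von Willebrand factor from endothelium, and several of the genes respond to inflammation as acute phase genes.

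The library labelled Flox held 9363 barcodes with 58171337 UMIs (6216 at the median), the library labelled HKO 10748 with 40475938 (2227.5). After removal of barcodes under 300 detected genes and of predicted doublets, 8659 and 9801 nuclei were kept, and 27 barcodes occurred in both libraries. *Themis*, the targeted gene, was higher in hepatocytes of the library labelled HKO, with 246 against 164 CPM, or a ratio of 1.5 (1.45 to 1.55). This direction is opposite to a loss of *Themis* transcripts, but counts per gene at the 3′ end do not show whether a floxed exon was lost. The level therefore cannot decide on the label, and directions below are between libraries as labelled. Clusters were named from marker genes and each name stands for a likeness. Raised markers were 12 to 15 of 15 in hepatocyte clusters, 12 of 12 in macrophages, HSCs and T cells, 10 to 12 of 12 in endothelial and 6 to 8 of 8 in cholangiocyte clusters. In every pair of values the library labelled Flox comes first and the library labelled HKO second. Hepatocytes numbered 5731 and 4494 nuclei, macrophages 548 and 1436, hepatic stellate cells (HSCs) 814 and 1179, endothelial cells 797 and 1269, cholangiocytes 135 and 550, and T cells 161 and 301. Median depth was lower in the library labelled HKO in each of these types, with 7452 and 5776 UMIs in hepatocytes and 1338 and 951 in endothelial cells.

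Hepatocytes were the leading source of these genes. Among the 43 genes with at least 50 UMIs over the compared types, 27 (62.8%) had their highest CPM in hepatocytes in both libraries, a share that was 17% over all genes. Macrophages led 7 (16.3%, against 11.5% of all genes), HSCs 3 (6.98%, against 6.65%), endothelial cells 3 (6.98%, against 6.63%), cholangiocytes 1 (2.33%, against 10.4%) and T cells 0 (against 15%). The other 2, *C2* and *C8b*, had different leading types in the 2 libraries. *C2*, the protease of the classical C3 convertase, stood at 68.0 and 54.8 CPM in hepatocytes and at 66.9 and 55.4 CPM in HSCs, so its order was not resolved. *C8b* was at 23.6 and 2.73 CPM in hepatocytes, and the higher T cell value of the library labelled HKO came from 1 UMI.

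**Figure D1:**
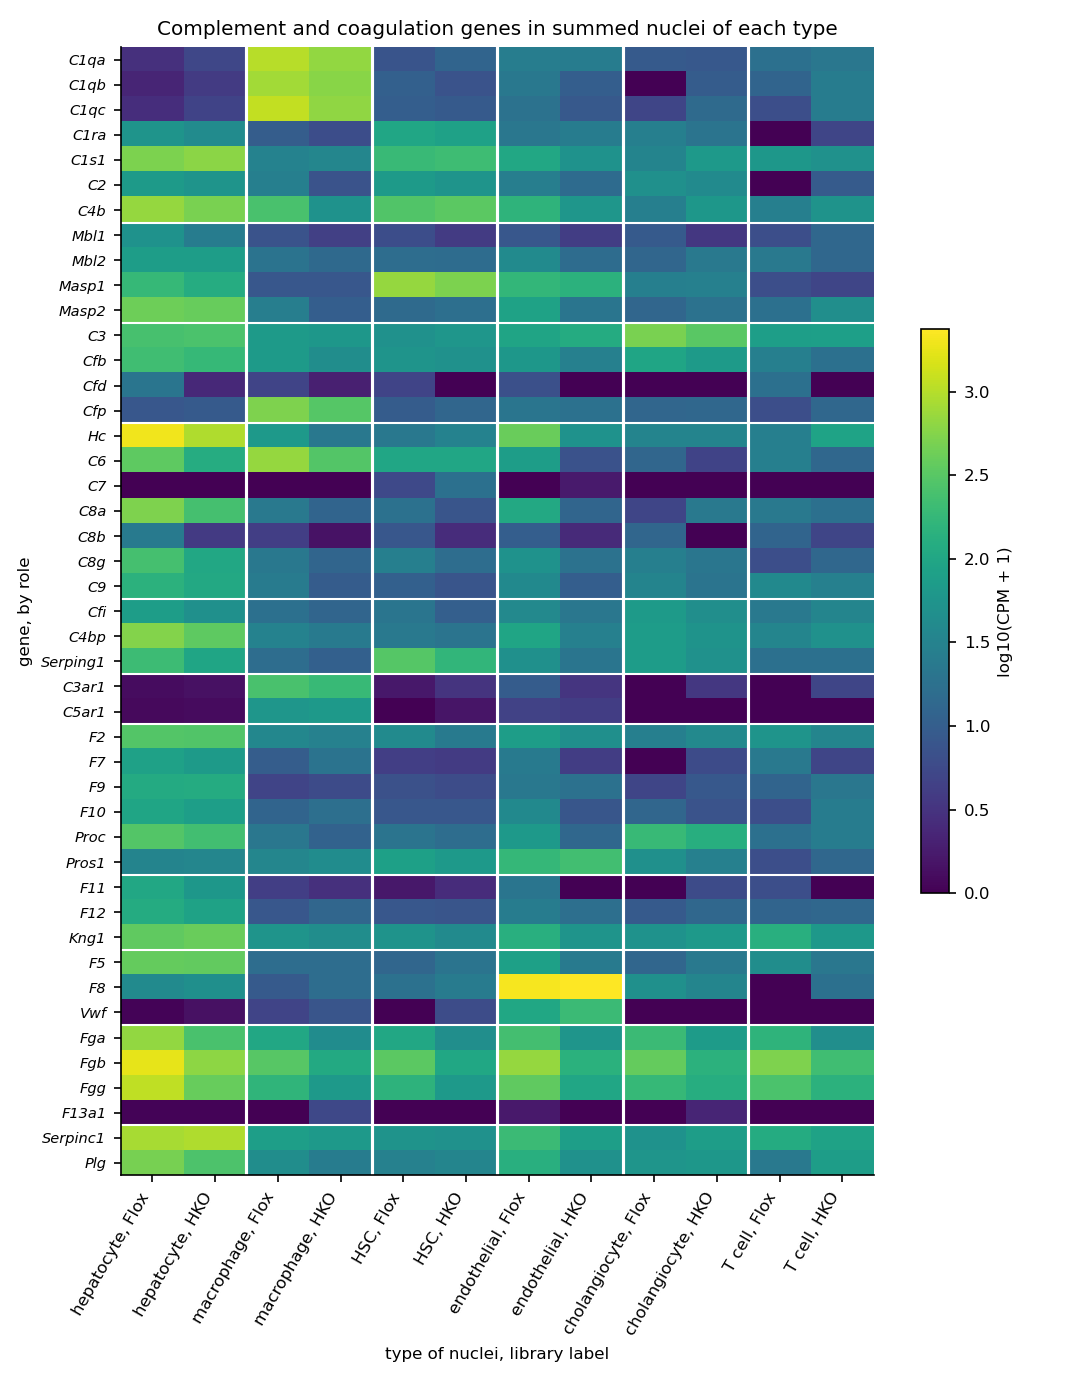
Level of the 45 genes, log10(CPM + 1), in the summed nuclei of 6 types (columns, each as Flox then HKO), with white lines between roles in the order classical, lectin, alternative with *C3*, terminal, inhibitors, anaphylatoxin receptors, vitamin K-dependent, contact, cofactors, fibrinogen with *F13a1*, and antithrombin with plasminogen. The hepatocyte columns are high in most rows, and the bright cells outside them are the C1q chains, *Cfp* and *C6* in macrophages, *Masp1* and *Serping1* in HSCs and *F8* in endothelial cells.

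Macrophages carried the recognition molecule of the classical pathway. In macrophages *C1qa* stood at 1034 and 679 CPM, *C1qb* at 804 and 602 CPM and *C1qc* at 1153 and 640 CPM. The second-highest type held 24.3 to 64.6 times less of each chain across the libraries. Macrophages also led for *Cfp* (properdin, which stabilises the alternative convertase), at 523 and 302 CPM, and for the anaphylatoxin receptors *C3ar1* (250 and 186 CPM) and *C5ar1* (58.2 and 66.7 CPM). The last gene was *C6*, a component of the membrane attack complex, at 691 and 296 CPM in macrophages against 346 and 122 CPM in hepatocytes. Within macrophages, nuclei with more Kupffer markers than *Trem2* macrophage markers (459 and 852 nuclei) held *C6* at 771 CPM (720 to 825) and 422 CPM (387 to 458). Nuclei on the *Trem2* side (44 and 296) held it at 136 CPM (74.4 to 228) and 65.9 CPM (44.5 to 94.1), lower in both libraries with intervals that did not overlap. *Cfp* was likewise on the Kupffer side, at 576 and 371 CPM against 204 and 178 CPM. *C5ar1* was on the other side, at 48.8 and 52.5 CPM in Kupffer-marked and 156 and 105 CPM in *Trem2*-marked nuclei. For 45 and 288 macrophages neither set of markers prevailed.

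HSCs led for *Masp1*, a protease of the lectin pathway, at 693 and 516 CPM against 179 and 120 CPM in hepatocytes and 168 and 148 CPM in endothelial cells. They also led for *Serping1*, the C1 inhibitor, at 308 and 165 CPM against 203 and 96.0 CPM, and for *C1ra*, a protease of the C1 complex, at 98.4 and 84.8 CPM. Endothelial cells led for the cofactor gene *F8* (factor VIII), at 2149 and 2359 CPM against 47.9 and 47.0 CPM in the next type. They led for *Pros1* (protein S, the cofactor of protein C) at 173 and 223 CPM and for *Vwf*, the carrier of factor VIII, at 102 and 201 CPM. *Vwf* was a gene of the vascular endothelium here: nuclei with more vascular than sinusoidal markers (108 and 174) held 874 and 1176 CPM, and those with more sinusoidal markers (659 and 927) held 4.12 and 10.3 CPM. *F8* was high on both sides, at 2180 and 2566 CPM in sinusoidal and 1845 and 1752 CPM in vascular nuclei. *C3*, the central protein of all 3 complement pathways, was highest in cholangiocytes, at 487 CPM (405 to 582) and 322 CPM (284 to 364), with hepatocytes at 246 and 262 CPM.

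**Figure D2:**
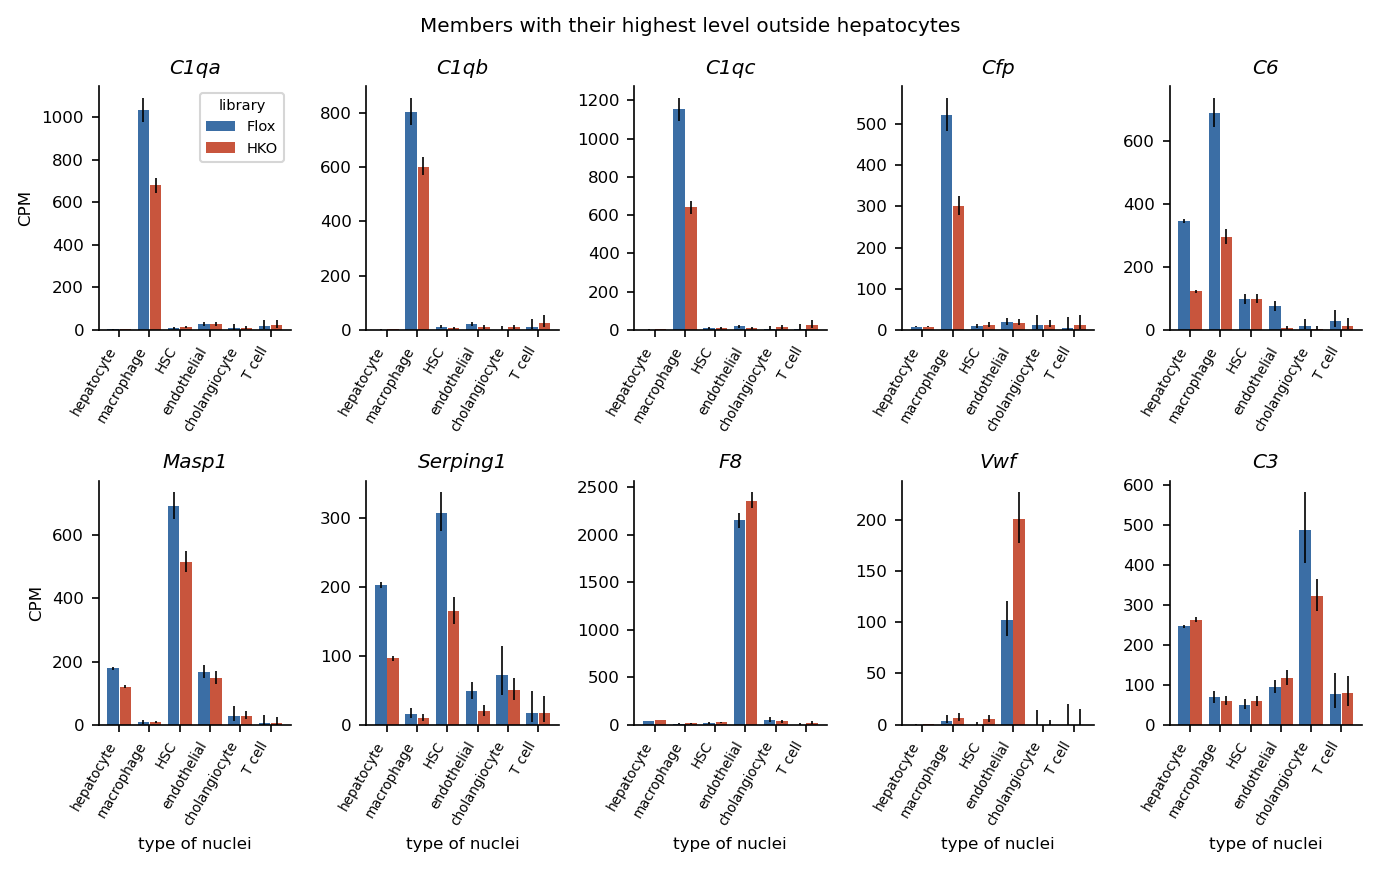
CPM of 10 genes whose highest level lay outside hepatocytes, by type of nuclei (bars from 0) and library (Flox blue, HKO red), with exact 95% Poisson intervals. The C1q chains, *Cfp*, *F8* and *Vwf* are near 0 outside 1 type, while *C6*, *Serping1* and *C3* have a second source in hepatocytes. *Masp1* is also seen in both hepatocytes and endothelial cells.

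Free RNA from broken hepatocytes reaches other droplets, and T cells, which should not make these transcripts, served as its measure. Over 14 abundant hepatocyte transcripts outside the 45 genes, a T cell nucleus held a median of 7.0% and 5.71% of the UMIs of a hepatocyte nucleus (from 1.33% to 11% and to 12.6% over the transcripts). With doublets kept the medians were 15.2% and 15.3%. For the 27 hepatocyte-led genes the T cell share was lower, with medians of 1.68% and 1.57%. *Fgb*, the fibrinogen β chain, stood at 4.12% and 4.43%, and *Hc* (complement C5) at 0.198% and 1.30%. Most of the sources named above stood far over the T cell level. Per nucleus, *C6* in macrophages was 50.9 times (lower bound 21.7) and 42.8 times (14.6) the T cell value, *Masp1* in HSCs 209 times (37.4) and 233 times (41.7), and *Serping1* in HSCs 30.9 times (10.5) and 18.6 times (7.18). *F8* had no UMI in T cells of the library labelled Flox, where the lower bound for endothelial cells was 165 times, and in the other library was 181 times (70.8) the T cell value. *C3* in cholangiocytes was 10.4 times (5.96) and 7.46 times (4.68). The reference transcripts there were 0.631 times (*Fabp1*) to 12.9 times (*Ambp*) the T cell value in the library labelled Flox. In the other library they were 0.759 times (*Fabp1*) to 9.12 times (*Ambp*). Below *Ambp*, the highest was *Ahsg*, at 4.48 and 4.43 times. Both ranges include *C3*, so the T cell value cannot separate its cholangiocyte reads from hepatocyte RNA. For the fibrinogen genes the levels outside hepatocytes lay nearer to that of T cells. *Fgb* in macrophages was 1.23 times (0.981 to 1.56) and 0.935 times (0.69 to 1.29) the T cell value, where its reads cannot be told apart from free RNA. In endothelial cells of the library labelled Flox *Fga*, *Fgb* and *Fgg* were 2.30 times (1.56 to 3.52), 2.08 times (1.68 to 2.60) and 2.12 times (1.57 to 2.93) that value, and in those of the other library each interval included 1. The reference transcripts per endothelial nucleus of the library labelled Flox were 1.24 times (*Rbp4*) to 3.43 times (*Tat*) the T cell value. That range includes the 3 fibrinogen values. *Fga* in cholangiocytes was 2.09 times (1.29 to 3.45) and 2.84 times (1.47 to 6.0), and *Fgg* there 1.14 times (0.742 to 1.76) and 1.58 times (1.07 to 2.39). These values also lie inside the ranges of the reference transcripts in cholangiocytes.

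In hepatocytes the summed transcripts of the 45 genes were lower in the library labelled HKO. They took 1.35% and 0.850% of hepatocyte UMIs (13470 and 8496 CPM, a ratio of 0.631, 0.628 to 0.634). Without the 3 fibrinogen genes and *Hc* the sums were 7900 and 6285 CPM, a ratio of 0.796 (0.791 to 0.8). Hepatocytes held 50 UMIs or more of 40 genes, of which 15 were at least 1.5-fold lower in the library labelled HKO, which over all 13156 such genes was true of 11.7%. At least 1.5-fold higher were 3, which over all genes was true of 10.7%, and 22 lay within these limits, at ratios of 0.673 to 1.18. The median log2 ratio was −0.38, with −0.01 over all genes and −0.18 over the 2554 genes led by hepatocytes. Among the 27 hepatocyte-led members alone, 12 were lower and 0 higher, with a median of −0.47. Of the 2554 genes led by hepatocytes, 587 were lower and 199 higher. Complement genes (24 measured) had a median of −0.48 and coagulation genes (16 measured) of −0.30. All 15 lower genes were below 1 in each of 3 zones of the lobule (defined below), and 12 of them were past 1.5-fold in each zone. Hepatocyte clusters of the 2 libraries were made separately, so the levels are over all hepatocytes of a library.

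**Figure D3:**
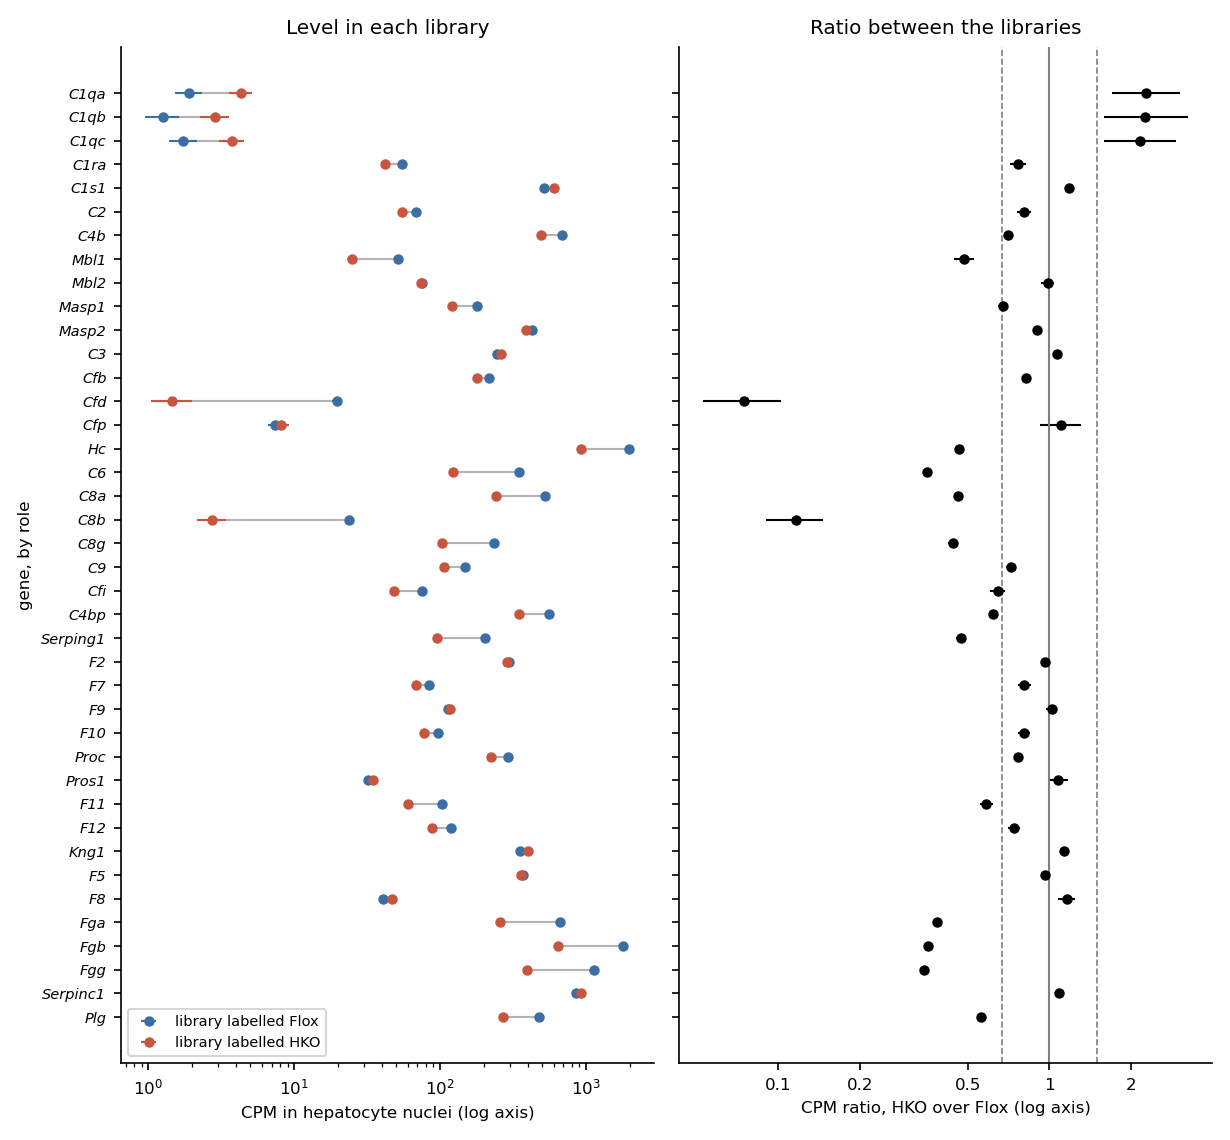
Hepatocyte CPM of the 40 measured genes in each library (left, log axis, exact 95% Poisson intervals) and the ratio of HKO over Flox (right, log axis, exact 95% intervals, dashed lines at 1.5-fold). The fibrinogen genes, *Hc*, *C6* and the C8 chains lie left of the lower limit, *Cfd* and *C8b* farthest, and the C1q chains, at a few CPM, lie right of the upper one.

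Fibrinogen, the precursor of the fibrin clot, gave the largest difference in CPM. *Fga* stood at 664 and 256 CPM, *Fgb* at 1789 and 639 CPM, and *Fgg* at 1136 and 392 CPM. The 3 chains together were 2.79-fold lower (2.76 to 2.82), and the ratios of the single chains, 0.386, 0.357 and 0.345, lay close together. The chains are neighbours on chromosome 3 in GRCm38, with *Fgg* at 83007724 to 83015049 and *Fga* at 83026076 to 83033627 on the plus strand and *Fgb* at 83040141 to 83049863 on the minus strand. In 1 hepatocyte cluster of the library labelled HKO, with 147 nuclei and a median of 2287 UMIs, *Fgb* was at 1623 CPM, inside the range of 1204 to 2845 CPM of the 4 clusters of the library labelled Flox. The other 3 clusters of the library labelled HKO lay at 484 to 784 CPM, below that range. *Serpinc1*, the gene of antithrombin, which blocks thrombin, did not share the pattern: it stood at 851 and 923 CPM (ratio 1.09, 1.07 to 1.10), and at 748 to 952 CPM and 886 to 954 CPM across the clusters of the libraries. After each nucleus had been thinned to 1000 UMIs, *Fgb* was detected in 75.4% and 43.9% of hepatocytes, and in 28.4% and 12.0% of the T cells deep enough to be thinned (88 and 50 nuclei). Before thinning, hepatocytes had 7452 and 5776 UMIs at the median and T cells 1063 and 698. Without thinning the hepatocyte shares were 99.3% and 88.7%.

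The upstream sequences of the 3 fibrinogen genes are shown because the chains moved together, and that of *Serpinc1* because it did not move with them. They were taken from RefSeq on build GRCm38.p6, up to 250 bases before the RefSeq start and ending before the gene as annotated, at chr3:83025903-83026075 (plus strand) for *Fga*, chr3:83049864-83050113 (minus strand) for *Fgb*, chr3:83007474-83007723 (plus strand) for *Fgg* and chr1:160978333-160978582 (plus strand) for *Serpinc1*. Capitals mark matches to 3 motifs of acute phase regulation, searched on both strands: a C/EBP motif (TTGCNNCAA), a STAT motif (TTCNNNGAA) and the interleukin-6 type 2 element (CTGGGAA).
Fga: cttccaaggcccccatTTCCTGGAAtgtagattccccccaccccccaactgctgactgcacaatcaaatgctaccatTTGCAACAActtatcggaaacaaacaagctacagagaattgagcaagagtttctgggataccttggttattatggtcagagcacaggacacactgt
Fgb: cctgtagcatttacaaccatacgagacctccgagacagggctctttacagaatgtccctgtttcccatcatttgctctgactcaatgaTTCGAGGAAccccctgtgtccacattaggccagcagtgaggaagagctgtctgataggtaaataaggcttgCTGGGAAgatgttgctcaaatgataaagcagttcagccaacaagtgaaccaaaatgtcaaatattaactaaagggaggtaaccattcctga
Fgg: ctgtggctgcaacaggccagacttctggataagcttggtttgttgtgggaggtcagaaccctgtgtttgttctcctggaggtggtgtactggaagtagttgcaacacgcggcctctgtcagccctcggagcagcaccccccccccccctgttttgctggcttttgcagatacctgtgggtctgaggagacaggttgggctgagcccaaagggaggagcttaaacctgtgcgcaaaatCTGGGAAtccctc
Serpinc1: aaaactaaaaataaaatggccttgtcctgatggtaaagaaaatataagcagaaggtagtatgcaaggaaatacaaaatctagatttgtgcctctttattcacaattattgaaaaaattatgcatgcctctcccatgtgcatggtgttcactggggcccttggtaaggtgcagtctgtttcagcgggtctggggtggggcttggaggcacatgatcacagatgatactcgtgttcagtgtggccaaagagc

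*Fga* held a STAT match 234 to 226 bases and a C/EBP match 173 to 165 bases before its RefSeq start. That start lies inside the gene as annotated, so the printed *Fga* stretch has only 173 bases and ends short of it. *Fgb* held a STAT match 162 to 154 bases and a type 2 element 91 to 85 bases before its start, and *Fgg* a type 2 element 13 to 7 bases before its start. *Serpinc1* held none of these letters in its window. Over the 250 bases before the start of all 32851 promoters in the table, the C/EBP motif occurred in 1.74%, the STAT motif in 7.02% and the type 2 element in 9.10%. Among the 34 of the 45 genes that had a promoter there, 3, 7 and 6 held them in any of their promoters. These counts are per gene, so they are not the same measure as the shares of promoters. The C/EBP motif was held by *C6*, *C7* and *Fga*, and the STAT motif by *C7*, *C8a*, *F9*, *Fga*, *Fgb*, *Masp2* and *Pros1*. *C1ra*, *C7*, *F9*, *Fgb*, *Fgg* and *Masp2* held the type 2 element. Of these holders *C1ra*, *F9*, *Masp2* and *Pros1* lay within 1.5-fold between the libraries in hepatocytes. *C6*, *C8a* and the fibrinogen genes were lower, and *C7* was not measured. Not in the promoter table were *Proc*, *Kng1*, *Cfi*, *Serping1*, *C1qa*, *Vwf*, *Cfb*, *C2*, *Plg*, *Masp1* and *C4b*. A match is a description of letters, and no factor was measured at these sites.

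The terminal pathway, which builds the membrane attack complex, had 5 of 6 measured genes lower past 1.5-fold, with a median log2 ratio of −1.14. *Hc*, the gene of C5, had the highest hepatocyte CPM of the 45 genes in the library labelled Flox. It stood at 1981 and 924 CPM, the latter not resolved from *Serpinc1* at 923 CPM, and was 2.14-fold lower (2.12 to 2.17). *C6* stood at 346 and 122 CPM, 2.83-fold lower (2.72 to 2.93). The 3 chains of C8 were lower together, *C8a* at 522 and 241 CPM, *C8g* at 235 and 104 CPM and *C8b* at 23.6 and 2.73 CPM. For *C8b* this was 8.63-fold (6.82 to 11.1), the second-largest fold of the genes, while the sum of the chains was 2.25-fold lower (2.20 to 2.30). *C9*, which forms the wall of the pore, was within the limits, at 148 and 107 CPM (ratio 0.722, 0.691 to 0.754). *C7* had 1 UMI in hepatocytes of the library labelled Flox and 0 in those of that labelled HKO, which allows up to 0.109 CPM.

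All 3 measured inhibitors of complement were lower. *C4bp*, which binds C4b and serves as a cofactor for its breakdown, stood at 559 and 347 CPM, 1.61-fold lower (1.58 to 1.65). *Serping1* stood at 203 and 96.0 CPM (2.11-fold, 2.02 to 2.21), and *Cfi*, the protease that cleaves C3b and C4b, at 74.9 and 48.3 CPM (1.55-fold, 1.45 to 1.65). The interval of *Cfi* includes the limit of 1.5-fold.

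The starting pathways were mixed. In the classical pathway 0 of 7 genes were past the lower limit. *C1s1*, a protease of C1, was at 513 and 608 CPM (ratio 1.18, 1.16 to 1.21), *C1ra* at 54.7 and 42.0 CPM (0.767) and *C4b* at 691 and 488 CPM (0.707, 0.693 to 0.722). *C4b* was the highest of the pathway in the library labelled Flox and *C1s1* in the other. *C4a*, a near-identical copy of *C4b* that is no member, was at 413 and 87.8 CPM, so reads divided between the copies make the *C4b* ratio uncertain. The 3 genes past the upper limit were the C1q chains at a few CPM: *C1qa* at 1.89 and 4.30 CPM, *C1qb* at 1.26 and 2.84 CPM and *C1qc* at 1.74 and 3.76 CPM, from 57 to 118 UMIs per gene and library. In the cluster of 147 nuclei named above the 3 chains were at 58.1 to 75.9 CPM, and without that cluster the ratios were 1.68 (1.23 to 2.30), 1.53 (1.03 to 2.28) and 1.47 (1.05 to 2.06), so that 2 remained past the limit. That cluster also showed 9 of 12 endothelial markers, and macrophages of the library labelled HKO were more numerous (1436 against 548). The part of RNA from other cells in the C1q ratios was not tested.

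In the lectin pathway *Mbl1*, a mannose-binding lectin, stood at 51.4 and 25 CPM (2.06-fold lower, 1.89 to 2.25), while its relative *Mbl2* stood at 74.8 and 73.7 CPM (ratio 0.986, 0.933 to 1.04). Of the proteases, *Masp2* was at 429 and 387 CPM (0.903) and *Masp1* at 179 and 120 CPM (0.673, 0.646 to 0.701), just inside the limit. In the alternative pathway *Cfd*, factor D or adipsin, gave the largest fold of all, at 19.5 CPM (18.3 to 20.9) and 1.46 CPM (1.04 to 1.99), 13.4-fold lower (9.76 to 18.9) from 887 and 40 UMIs. After thinning, 2.12% and 0.157% of hepatocytes held a *Cfd* UMI, beside 1 of 88 T cells (1.14%) and 0 of 50, which allows up to 6%. In T cells of the library labelled Flox *Cfd* had 3 UMIs, or 16.6 CPM (3.42 to 48.5), an interval that includes the hepatocyte level, so that the 2 types cannot be told apart there. *Cfb*, the protease of the alternative convertase, stood at 218 and 180 CPM (0.824), *C3* at 246 and 262 CPM (1.07, 1.03 to 1.10) and *Cfp* at 7.36 and 8.13 CPM (1.10, 0.928 to 1.31).

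The vitamin K-dependent proteins, which carry the protease chain of coagulation, lay within 1.5-fold for all 6 measured genes, with a median log2 ratio of −0.18. *F2* (prothrombin), the highest, stood at 299 and 288 CPM (ratio 0.964, 0.938 to 0.991). *F9* was at 114 and 116 CPM, *F10* at 96.6 and 77.8 CPM and *F7* at 84.5 and 68.5 CPM. The anticoagulants of this group were *Proc* (protein C), at 291 and 223 CPM (0.767), and *Pros1*, at 32.2 and 34.7 CPM. The cofactors *F5* and *F8* were also within the limits, *F5* at 373 and 361 CPM and *F8* at 40.5 and 47.0 CPM.

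In the contact system, which starts clotting on surfaces, *F11* was lower, at 103 and 60.5 CPM (1.71-fold, 1.61 to 1.81). *F12* was at 119 and 88.1 CPM (0.741), and *Kng1*, high-molecular-weight kininogen, at 351 and 398 CPM (1.13, 1.11 to 1.16). *Plg*, plasminogen, the precursor of the enzyme that dissolves fibrin, was lower as well, at 478 and 269 CPM (1.78-fold, 1.73 to 1.83). Fibrinogen, *Plg* and *F11* were thus lower while *F2*, *F5*, *F9* and *Serpinc1* lay between ratios of 0.964 and 1.09. The ratios of *F7*, *F10*, *F12* and *Proc* fell between those 2 sets of genes, so the coagulation genes showed no clean split.

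Other genes of the same pathways, 50 in all, were counted beside them. Of 22 further complement genes, 12 were measured in hepatocytes, with 3 higher, 3 lower and a median log2 ratio of 0.17. The 3 higher ones were at low CPM, *Cd55* (decay-accelerating factor) at 1.08 and 3.5 CPM, *Cd93* at 0.573 and 1.28 CPM and *Vsig4*, a complement receptor of macrophages, at 0.551 and 1.09 CPM. The lower ones were *Susd4*, at 34.3 and 9.81 CPM, *Colec12*, at 92.8 and 57.1 CPM, and *Vtn* (vitronectin, an inhibitor of the membrane attack complex), at 161 and 107 CPM. Of 28 further coagulation genes, 18 were measured, with 5 lower and a median of −0.29. *Mcfd2* at a ratio of 1.13 and *Kng2* at 1.11 lay within the limits. The lowest ratios were those of *Hrg* (histidine-rich glycoprotein), at 244 and 128 CPM, *Serpinf2* (the inhibitor of plasmin), at 171 and 93.8 CPM, and *Vkorc1* (which recycles vitamin K), at 59.7 and 33.0 CPM. Of 12 acute phase genes outside the pathways, 6 were lower and 0 higher, with a median of −0.66, and *Saa1*, serum amyloid A, stood at 483 and 79.0 CPM. The 14 free RNA reference transcripts had a median of −0.30.

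Along the lobule, hepatocytes were divided in each library into 3 zones of about equal size by the share of pericentral among zone marker UMIs, in nuclei with at least 10 such UMIs (5570 and 3936). A zone is a range of this share and no cell type, and within 0.05 of the lower boundary lay 712 and 624 nuclei and of the upper one 338 and 244. Of 40 measured genes, 4 were at least 1.5-fold higher pericentrally in both libraries (5.92% of all genes) and 6 periportally (5.43% of all genes). The pericentral genes were *C6*, *Cfd*, *Pros1* and *C1qb*, and the periportal ones *C3*, *Hc*, *C8a*, *C8b*, *C9* and *F7*. The membrane attack complex was thus divided, with *C6* at one end of the lobule and *Hc*, *C8a*, *C8b* and *C9* at the other.

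*C6* stood at 188 CPM periportally and 525 CPM pericentrally in the library labelled Flox (ratio 2.80, 2.67 to 2.93) and at 63.6 and 210 CPM in the other (ratio 3.30, 3.0 to 3.65). *Cfd* was the steepest, at 1.01 and 31.0 CPM (30.6, 18.0 to 56.4) and at 0.114 and 2.35 CPM, where 1 and 18 UMIs gave a ratio of 20.6 (3.26 to 860). *Pros1* had ratios of 1.69 (1.47 to 1.93) and 1.95 (1.64 to 2.34). *C1qb*, from 10 to 27 UMIs per zone, had ratios of 2.35 (1.08 to 5.50) and 2.58 (1.26 to 5.59). The other C1q chains met neither limit in both libraries, with *C1qa* at 0.798 and 1.70 and *C1qc* at 0.798 and 0.819. With a minimum of 200 UMIs, 3 pericentral genes remained. On the periportal side *C3* stood at 381 and 146 CPM from the periportal to the pericentral zone in the library labelled Flox (2.61-fold) and at 316 and 208 CPM in the other (1.52-fold). *Hc* went from 2693 to 1450 CPM and from 1146 to 730 CPM, 1.86-fold and 1.57-fold higher periportally. *C8a* (700 to 382 CPM and 301 to 165 CPM) was 1.83-fold higher in both libraries. *C8b* (39.7 to 12.6 CPM and 3.53 to 1.18 CPM) was 3.15-fold and 3.0-fold higher, the latter from 31 and 9 UMIs (1.40 to 7.17). *C9* (201 to 83.0 CPM and 135 to 43.4 CPM) had the strongest periportal side in the library labelled HKO, 2.43-fold and 3.12-fold. *F7* (114 to 61.7 CPM and 86.4 to 54.2 CPM) was 1.85-fold and 1.59-fold higher. In the library labelled HKO the intervals of *C3* (1.43 to 1.62), *F7* (1.41 to 1.80) and *C8b* include the limit of 1.5-fold. *C8g*, the other C8 chain, was level, with pericentral over periportal ratios of 1.08 and 1.15.

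The fibrinogen genes were periportal in the library labelled Flox and nearly level in the other. *Fgb* stood at 2357, 1691 and 1331 CPM in the periportal, middle and pericentral zones of the library labelled Flox, and at 661, 617 and 614 CPM in the other. The pericentral over periportal ratios were 0.470, 0.565 and 0.521 for *Fga*, *Fgb* and *Fgg* in the first and 0.908, 0.929 and 0.857 in the second, with intervals that did not overlap. Between the libraries, the periportal zones differed more, with ratios of 0.279, 0.280 and 0.270, than the pericentral zones, with 0.539, 0.461 and 0.443. With 1 library per group this difference was not tested. The boundaries of the zones were set within each library and lie at different shares, 0.0833 and 0.618 in the one and 0.0974 and 0.435 in the other.

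**Figure D4:**
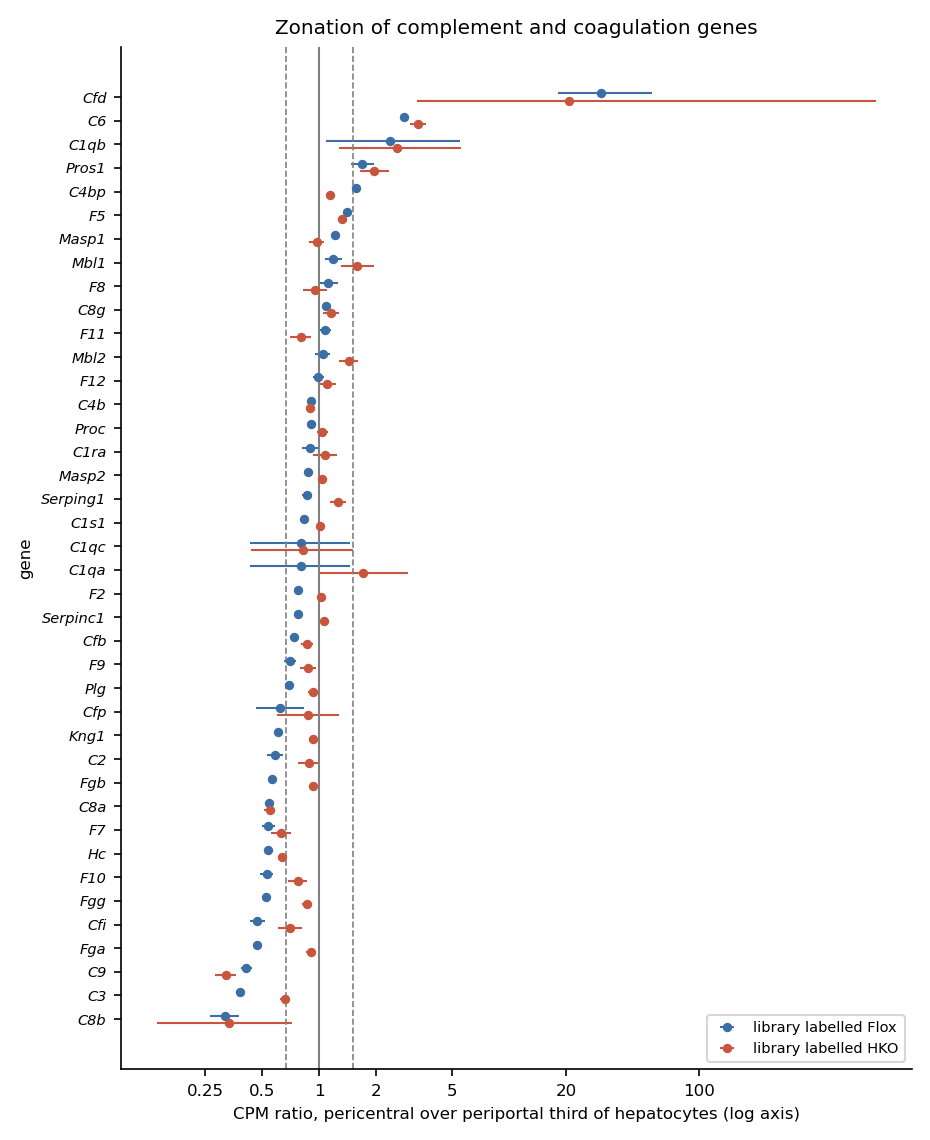
Ratio of CPM in the pericentral over the periportal zone of hepatocytes for the 40 measured genes in each library (log axis, exact 95% intervals, dashed lines at 1.5-fold), ordered by the library labelled Flox. *Cfd* and *C6* lie at the pericentral end and *C8b*, *C3* and *C9* at the periportal end, and the fibrinogen genes lie at 0.470 to 0.565 in the library labelled Flox and at 0.857 to 0.929 in the other.

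Outside hepatocytes the share of lower genes differed by type. In macrophages 26 genes were measured, with 14 lower (11.9% of all genes) and 0 higher (5.22%), and a median log2 ratio of −0.60 against −0.09 over all genes. Of the 7 genes that macrophages lead, *C1qa*, *C1qc*, *Cfp* and *C6* were lower, and the other lower genes were not led by macrophages. The 14 reference transcripts per macrophage nucleus had medians of 8.87% and 6.81% of the hepatocyte value. The part of free RNA in the macrophage ratios was not tested. The C1q chains together stood at 2991 and 1920 CPM, 1.56-fold lower (1.49 to 1.63), but with doublets kept the ratio turned to 1.15, in a macrophage cluster that then held 839 in place of 548 nuclei of the library labelled Flox and showed 11 of 12 endothelial markers. In Kupffer-marked nuclei alone, a choice made after seeing the data, it was 0.672. *C6* in macrophages was 2.34-fold lower and *Cfp* 1.73-fold lower, while *C3ar1* (0.745), *C1qb* (0.748) and *C5ar1* (1.14, 0.856 to 1.54) were within the limits. *C4b* was at 250 and 52.2 CPM in macrophages, 4.79-fold lower, and per nucleus stood at 18.4 times (7.80) the T cell value in the library labelled Flox and at 1.74 times (0.977) in the other. In the library labelled Flox *C4b* was on the Kupffer side, at 285 CPM against 19.4 CPM in *Trem2*-marked nuclei. The values were 65.4 and 28.6 CPM in the other library, where the macrophage level was not resolved from that of T cells.

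In HSCs 23 genes were measured, with 6 lower (12% of all genes) and 1 higher (5.62%), and a median of −0.25 against −0.05. *Serping1* was 1.87-fold lower there, and *Masp1* (0.744) and *C1ra* (0.862) were within the limits. The 1 higher gene was *F5*, at 11.8 and 18.7 CPM with an interval of the ratio of 0.864 to 2.98. *C7* was seen in HSCs and hardly elsewhere, with 7 and 29 of its 38 UMIs, or 4.59 CPM (1.85 to 9.46) and 16.4 CPM (11 to 23.5).

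In endothelial cells 33 genes were measured, with 25 lower (14.4% of all genes) and 1 higher (6.08%), and a median of −1.37 against −0.04. The genes that endothelial cells lead went otherwise: *F8* had a ratio of 1.10 (1.04 to 1.16), *Pros1* of 1.29 (1.08 to 1.54), and *Vwf*, the 1 higher gene, of 1.97 (1.60 to 2.43). Of the lower genes *Hc* was at 399 and 50.9 CPM, *C6* at 75 and 6.17 CPM, *C8a* at 108 and 11.6 CPM and *Fgb* at 691 and 141 CPM. Free RNA moved in the same direction, since the 14 reference transcripts per endothelial nucleus had medians of 10.9% and 5.90% of the hepatocyte value. Its part in these ratios was not tested. For *Hc*, endothelial nuclei of the library labelled Flox held 22.6 times (9.62) the T cell value, against 0.712 times (0.433) in the other library. In cholangiocytes 14 genes were measured, with 3 lower (10.9% of all genes) and 2 higher (11.1%), the lower ones including *C3* at a ratio of 0.661 (0.531 to 0.827). In T cells 2 genes could be measured, *Fgb* and *Fgg*, both lower (10.1% of all genes, with 5.69% higher), at 520 and 215 CPM and at 260 and 144 CPM.

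*F13a1*, the subunit of factor XIII that crosslinks fibrin, had 17 UMIs in the 6 compared types together. Its transcripts lay in a cluster led by *Ccr2* in each library, a chemokine receptor gene of monocytes, with 180 and 306 nuclei and median depths of 1384.5 and 910.5 UMIs. These clusters were not among the compared types, and the one of the library labelled Flox met no name while that of the library labelled HKO met the dendritic markers. *F13a1* had 56 UMIs in each, or 205 CPM (155 to 266) and 183 CPM (138 to 238), where the highest compared type held 0.714 and 4.35 CPM. *F10*, factor X, stood there at 172 and 105 CPM, with intervals of 126 to 229 and 71.6 to 148 CPM, so that its hepatocyte level (96.6 and 77.8 CPM) lay below the interval in the library labelled Flox and inside it in the other. *C5ar1* stood there at 106 CPM (71.2 to 153) and 26.2 CPM (11.3 to 51.5), against 58.2 CPM (45.6 to 73.2) and 66.7 CPM (56.0 to 78.8) in macrophages. With 5 genes below 50 UMIs in hepatocytes (*C7*, *C3ar1*, *C5ar1*, *F13a1* and *Vwf*), all 45 genes are accounted for.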

How the data were processed

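Nuclei of mouse liver were profiled by 10x 3′ snRNA-seq, 1 library per genotype. The authors deposited raw UMI counts per gene and barcode, made per the labels with Cell Ranger 8.0.1 on GRCm38, and per the study's methods with intronic reads excluded, so that spliced 3′ ends prevail. Near-identical copies (*C4b* and *C4a*, *C1ra* and *C1rb*, *C1s1* and *C1s2*, *Kng1* and *Kng2*) can divide reads between them. The counts were not normalized. The genes, their roles and the other lists were chosen with earlier results of these data known.

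Barcodes with at least 300 detected genes and genes in at least 3 nuclei were kept. The highest Scrublet scores of each library were removed as doublets at 0.8% per 1000 barcodes (701 and 920 barcodes, or 7.49% and 8.58%). Scrublet's own limits would have removed 758 and 560. Each library was clustered alone (scanpy 1.11.5, 3000 variable genes, 15 components, resolution 0.5), and clusters were named from marker lists where at least 3 markers were raised. How clusters were named was decided with the clusters in view. UMIs were summed per type and library and divided by their total (CPM). Log2 ratios carry a pseudocount of 1 CPM, and ratios and folds none. A gene was measured in a type with at least 50 UMIs over both libraries, and named as higher or lower at a ratio past 1.5. Intervals are exact at 95% (Poisson for CPM, conditional binomial for ratios, Clopper-Pearson for shares), and a count of 0 allows up to 3 counts of the total. They cover counting error only. With 1 library per group no test was made. Every gene past 1.5-fold in its leading type or between zones in both libraries, every gene led by another type, and the highest of each role were to be named with values, and of the other pathway genes the 3 highest and 3 lowest ratios. For 1 gene among these the result is not reported here. The sums and ratios were tested on simulated data. Promoter letters are from RefSeq (34 of 45 genes matched), gene positions from GENCODE M21. Calculations used Python 3.11.15, numpy 2.4.6, pandas 2.3.3, scipy 1.17.1 and R 4.3.3, with edgeR 4.0.16 for TMM factors as an alternative only. Alternatives changed the doublet step, the gene minimum, the clustering, the naming, the scaling, the count minimum, the pseudocount and the zones.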

Additional observations from a re-analysis of the deposited data

Results flagged for a closer look

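For 3 genes the order of the zones was opposite in the libraries, with intervals on different sides of 1, and the difference was not tested. The pericentral over periportal ratio of *Serping1* was 0.856 (0.813 to 0.902) in the Flox and 1.26 (1.14 to 1.39) in the HKO library, as labelled. That of *F11* was 1.08 (1.0 to 1.16) and 0.798 (0.703 to 0.904), and that of *Serpinc1* 0.773 (0.754 to 0.793) and 1.05 (1.02 to 1.09).

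In clusters outside the compared types some genes were above every compared type of their library. *F13a1* stood at 205 CPM and 183 CPM in the *Ccr2*-led clusters, as described above. In the library labelled Flox, *C3* stood at 2047 CPM (1639 to 2525), from 87 UMIs, in a cluster of 15 nuclei led by *Muc16*, a gene of mesothelium, against 487 CPM in cholangiocytes. In a cluster of 64 nuclei led by *Hbb-bt*, with proliferation markers, *C9* stood at 225 CPM (182 to 275) against 148 CPM in hepatocytes. In a cluster of 153 nuclei led by *Igha*, which stayed unnamed because it also showed 15 of 15 hepatocyte markers, *Cfi* stood at 224 CPM against 74.9 CPM in hepatocytes, *Mbl2* at 202 CPM against 74.8 CPM, *Fga* at 1015 CPM against 664 CPM and *Kng1* at 690 CPM against 351 CPM. The cause of these values was not tested.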

How the results depend on the processing

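No paired analysis was possible because each group had 1 library, which also left no replicate to leave out. Of 66 alternative values, 58 stayed within the limit set for them (1.5 times for counts of genes, an interval around the value for ratios and medians), 7 moved and 1 turned. Over the alternatives the genes led by hepatocytes numbered 19 to 29. The count of 19 came from naming types by the marker UMIs of single nuclei, and every other alternative gave 25 or more. Genes lower in hepatocytes of the library labelled HKO numbered 14 to 16 and those higher 1 to 4 (1 with a minimum of 200 UMIs). The median log2 ratio ran from −0.41 to −0.31. Pericentral genes numbered 3 to 4 and periportal genes 5 to 6. With doublets kept, the T cell share of free hepatocyte RNA moved to 15.2% and 15.3%. The C1q ratio in macrophages also depended on the choices: it was 1.15 with doublets kept, 0.75 with at least 500 detected genes and 0.706 with TMM factors, and, in alternatives chosen after seeing the data, 0.672 in Kupffer-marked nuclei and 0.687 with the *Ccr2*-led clusters joined. The cause was not tested beyond the larger macrophage cluster named above. Also chosen after seeing the data, the *Ccr2*-led clusters as a further type left 25 genes led by hepatocytes, and leaving out the cluster of low depth left 15 lower and 2 higher genes and a median of −0.38. Depth limits the non-hepatocyte types: 19 genes in macrophages, 22 in HSCs, 12 in endothelial cells, 31 in cholangiocytes and 43 in T cells stayed under 50 UMIs.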
